A study of Mus musculus with 6 samples.

Results

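The genes described here encode the subunits and inhibitors of the transcription factor NF-kB: Rela, Relb, Rel, Nfkb1, Nfkb2, Nfkbia, Nfkbib, Nfkbie, Nfkbiz and Tnfaip3. They were taken by gene name from the annotation of a mouse expression array and number 10 of the 34650 gene names on it, read by 15 of its 55681 probes.

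NF-kB is a dimer of Rel-family proteins. In resting cells the inhibitory I-kappa-B proteins hold most dimers in the cytoplasm, and signals from Toll-like, interleukin 1 and tumour necrosis factor receptors free them by having the inhibitors degraded. Several inhibitors are themselves transcribed by NF-kB, which closes a negative feedback loop, and in macrophages the system is known for switching on cytokine and chemokine genes after contact with microbes.

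The study asked what c-Maf, a transcription factor and the product of Maf, does to gene expression in macrophages that the labels call polarized M2-like. Mice had been made chimeric with fetal liver cells that were either wild type (WT) or c-Maf knockout (KO), and 3 samples of each genotype were compared. Both groups were grown the same way: cells were seeded in medium with 10% FBS and M-CSF at 10 ng/ml, the growth factor that drives macrophage differentiation, M-CSF was added again daily from day 4, and the medium was left in place throughout. No agent that triggers NF-kB is named for either group. The sample titles call the cells BMM, the usual short form of bone marrow-derived macrophages. The tissue is labelled liver, while the protocol names both fetal liver and bone marrow. The kind of knockout allele, the host cells that remain in the chimeras, the animals' age and whether the replicates came from separate mice are not given by the sources used here. The spread behind the p-values is that between these samples and may be technical. Scanner files were read for 5 arrays, all 3 WT samples and replicates 2 and 3 of c-Maf KO, whereas c-Maf KO replicate 1 enters only through the authors' table of ratios for all 6 samples.

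The stretch just before the start of 5 of these genes is shown because it carries matches to the binding sequence of NF-kB itself, the kappa-B consensus. Each line gives the 130 bases before the annotated start site, read along the gene and taken from RefSeq on build GRCm38.p6, with the matches in capitals, joined where they overlap.
Rel, chr11:23770970-23771099, minus strand: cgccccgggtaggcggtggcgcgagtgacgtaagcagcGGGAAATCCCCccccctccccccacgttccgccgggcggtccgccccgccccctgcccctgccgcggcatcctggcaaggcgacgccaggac
Nfkb2, chr19:46304607-46304736, plus strand: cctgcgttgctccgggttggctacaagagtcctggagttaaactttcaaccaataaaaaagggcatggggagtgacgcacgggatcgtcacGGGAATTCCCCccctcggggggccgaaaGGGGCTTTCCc
Nfkbia, chr12:55492648-55492777, minus strand: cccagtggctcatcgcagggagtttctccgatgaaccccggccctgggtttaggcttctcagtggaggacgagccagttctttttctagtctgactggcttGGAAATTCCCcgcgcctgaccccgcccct
Nfkbie, chr17:45555570-45555699, plus strand: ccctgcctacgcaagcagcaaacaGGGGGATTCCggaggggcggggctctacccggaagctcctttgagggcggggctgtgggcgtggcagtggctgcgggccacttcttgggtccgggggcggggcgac
Tnfaip3, chr10:19015411-19015540, minus strand: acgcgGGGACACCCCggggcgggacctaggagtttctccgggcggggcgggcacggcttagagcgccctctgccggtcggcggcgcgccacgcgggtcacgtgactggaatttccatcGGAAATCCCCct

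The search covered both strands of the 250 bases before each start site. RefSeq's table held windows for 7 of the 10 genes, 10 windows in all, and not for Relb, Nfkb1 or Nfkbiz. A kappa-B consensus match was present in 5 of the 7 genes and in 7 of the 10 windows, against 4.46% of 27025 genes and 3.9% of 32851 windows over the whole table. The match nearest to a start site began 11 bases before that of Nfkb2, 12 before that of Tnfaip3, 29 before that of Nfkbia, 91 before that of Rel and 106 before that of Nfkbie. No window of these genes held TGCTGAC, the core of the sequence that Maf proteins are known to bind, which 3.81% of all windows held. A match describes letters in these windows and was not tested as a binding site.

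**Figure D1:**
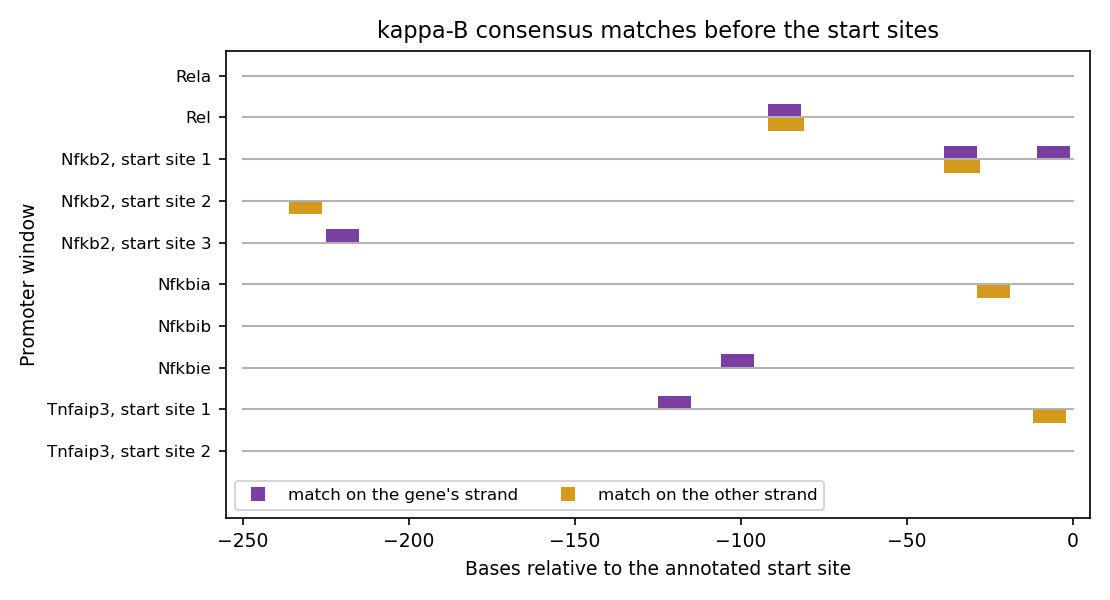
The horizontal axis gives the distance in bases from the annotated start site and each row is 1 promoter window, with kappa-B consensus matches on the gene's strand above the line and on the other strand below it. Matches are drawn for Rel, Nfkb2, Nfkbia, Nfkbie and Tnfaip3, and the rows of Rela and Nfkbib hold none.

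Differences are given as log2 c-Maf KO minus WT, so a negative value is a lower signal in c-Maf KO. A level is the log2 of the scanner's processed intensity divided by the 75th percentile of its array, and a ratio is the log2 of the deposited value, which is relative to the probe's median over the 6 samples. The 75th percentile lay between 411 and 495 intensity units on the 5 arrays, 48.9% to 50.5% of probes were well above background, and none was saturated. The targeted gene set the groups apart: the main Maf probe had ratios of 1.92 to 2.03 in WT and -2.36 to -1.92 in c-Maf KO, a difference of -4.14 (SE 0.12, limma adjusted p = 0.000826). The sources used here do not say whether this probe lies in the deleted sequence. All 8 macrophage markers (Csf1r, Adgre1, Cd68, Lyz2, Itgam, Mertk, Fcgr1 and Mrc1) were well above background on all 5 arrays. So were all 8 neutrophil and granulocyte precursor markers, the 9 kept stromal markers and the 5 kept dendritic cell markers. Detection alone therefore does not establish the macrophage identity named by the labels. The summed level of the macrophage markers was 1130 to 1227 times the 75th percentile in WT and 1092 to 1122 in c-Maf KO. For the neutrophil markers it was 36.5 to 56.5 in WT and 30.9 to 43.5 in c-Maf KO. For the dendritic cell markers it was 198 to 212 in WT and 179 to 189 in c-Maf KO. Of 5 hepatocyte markers, Alb, Apoa1 and Ttr were not kept, while Afp was well above background on 5 arrays and Serpina1a on 4, with a summed level of the kept ones of 3.70 to 4.78 times the 75th percentile over the 5 arrays. Fibroblast and stromal markers had higher means in c-Maf KO, with none called: 9 of 10 were kept, Lum not, none of the 9 was at 0, and their summed level was 106.7 to 184 times the 75th percentile in WT and 242 to 266 in c-Maf KO. The file labels place the WT and the c-Maf KO arrays in different rows of the same slide, and slide row cannot be told apart from genotype.

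All 10 NF-kB genes were kept, that is well above background on at least 2 arrays, and none passed the test for a difference. On the 5 arrays 7 of 28273 kept probes were called, or 0.0248%, and 6 in the value table, or 0.0212%, with 0 NF-kB genes in either. The 6 of the value table were 3 higher (0.0106%) and 3 lower (0.0106%) in c-Maf KO. At an unadjusted p under 0.05 there were 2 of 10 in each source, Rela and Relb, against 10.5% and 12.1% of all kept probes. In both sources 8 of the 10 genes had a difference below 0 (all but Nfkbia and Tnfaip3), against 53.9% and 50.9% of all kept probes. The 10 genes had a median difference of -0.12 (5 arrays) and -0.11 (value table), with a median over all kept probes of -0.014 and -0.0038. The median size of a difference, taken without sign, was 0.12 and 0.13 for the 10 genes and 0.10 for all kept probes in both sources. After normexp background correction the median of the 10 genes on the 5 arrays was -0.077. The number of probes called over the whole array depended on the samples, but no NF-kB gene was among them in any case. On the 5 arrays 2 were called without WT replicate 1, 2 or 3, 18 without c-Maf KO replicate 2 and 15 without c-Maf KO replicate 3. The value table gave 31 calls without WT replicate 1, 3 without WT replicate 2 or 3, and 2 without c-Maf KO replicate 2 or 3.

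**Figure D2:**
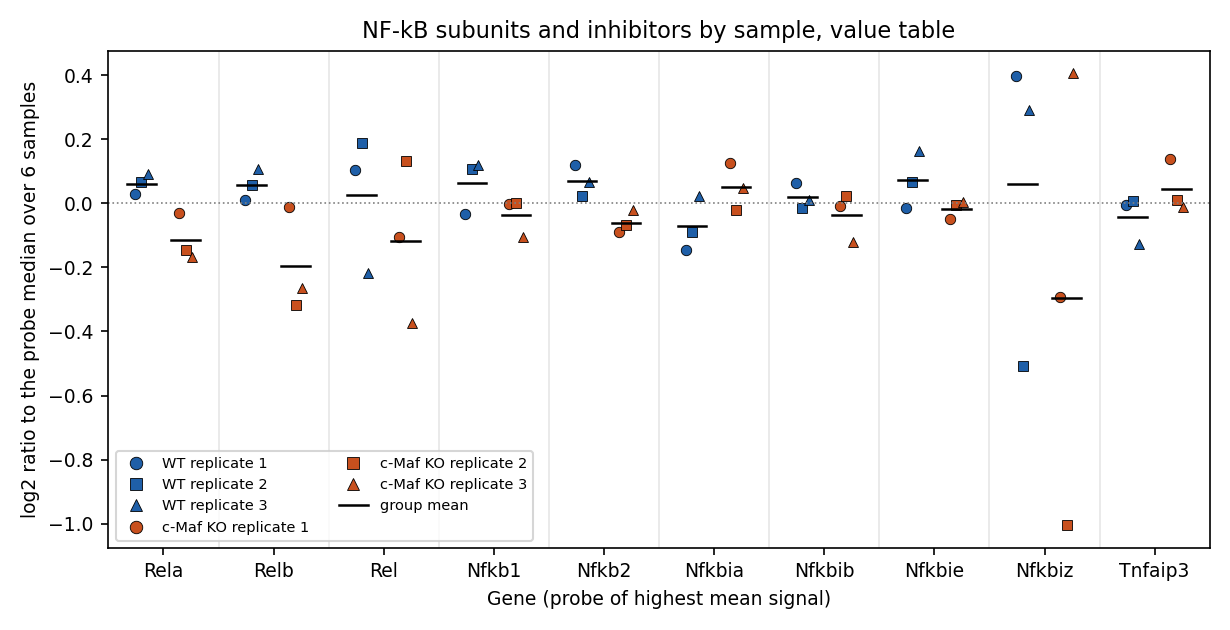
The vertical axis is the log2 ratio to the probe's median over the 6 samples, points are samples (blue WT, orange c-Maf KO, shapes replicate numbers), and bars are group means for the probe of highest mean signal of each gene. The groups lie apart for Rela, Relb and Nfkb2 and overlap for the other 7 genes, and Nfkbiz spreads from -1.01 to 0.41.

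The WT and c-Maf KO ratios did not overlap for 3 of the 10 genes, each lower in c-Maf KO (Rela, Relb and Nfkb2), and for 0 in the other direction. Among all kept probes 9.26% did not overlap and were lower in c-Maf KO, and 10.2% did not overlap and were higher. Without WT replicate 1 the count in either direction was 5 of 10, and 30.7% of all kept probes did not overlap in that setting, against 19.4% with all 6 samples. Rela, Relb and Nfkb2 were grouped here with the subunits, although the precursor made from Nfkb2 also inhibits other subunits until it is processed. In replicates 1 to 3 of WT the 5 subunits had a median ratio of 0.030, 0.065 and 0.091, whereas replicates 1 to 3 of c-Maf KO had -0.030, -0.068 and -0.17. Of the 5 inhibitors it was -0.0059, -0.014 and 0.022 in WT and -0.0092, -0.0040 and 0.0040 in c-Maf KO. The subunits' median was the ratio of Rela in every sample but c-Maf KO replicate 2, where it was that of Nfkb2. Its separation by genotype therefore repeats that of these genes and is no further observation. The inhibitors' medians were not separated, and whether subunits and inhibitors differed from each other was not tested. The lowest ratio of a gene was most often that of c-Maf KO replicate 3, for 4 of 10 genes, and the highest most often that of WT replicate 3, also for 4. Over all kept probes the median ratio of these samples was -0.020 and -0.0023.

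Rela encodes p65, the subunit with a strong transactivation domain that pairs with p50 in the most common NF-kB dimer. Its probe (chromosome 19, 5648070 to 5648129, plus strand, mm9, the build of the array files) read processed intensities of 24537, 24683 and 26998 on the WT arrays and of 22325 and 25268 on the arrays of c-Maf KO replicates 2 and 3. These unscaled intensities overlapped, and after scaling to the 75th percentile the levels were 5.87, 5.91 and 5.91 in WT and 5.68 and 5.68 in c-Maf KO. In the value table Rela had ratios of 0.030, 0.065 and 0.091 in WT and -0.030, -0.15 and -0.17 in c-Maf KO. The mean was 0.062 ± 0.031 in WT and -0.11 ± 0.075 in c-Maf KO (SD, n = 3 each). Every c-Maf KO sample lay below every WT sample, with c-Maf KO replicate 1 the nearest to WT. The difference was -0.18 in the value table (SE 0.065, 95% interval -0.34 to -0.018, limma adjusted p = 0.372) and -0.22 on the 5 arrays (SE 0.060, adjusted p = 0.385), so WT was 1.13-fold and 1.17-fold higher without passing the test.

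Relb encodes the subunit that pairs mainly with p52 and serves the non-canonical branch of the pathway. Its brightest probe, A_51_P389751 (chromosome 7, 20191722 to 20191781, minus strand, mm9), had levels of 1.42, 1.47 and 1.498 in WT and of 1.08 and 1.15 in c-Maf KO. The ratios were 0.010, 0.058 and 0.11 in WT and -0.010, -0.32 and -0.26 in c-Maf KO, with means of 0.059 ± 0.049 and -0.20 ± 0.16 (SD, n = 3 each). The groups did not overlap, but c-Maf KO replicate 1 lay next to WT replicate 1 and the difference rested mainly on c-Maf KO replicates 2 and 3. It was -0.35 on the 5 arrays (SE 0.066, limma adjusted p = 0.303), which do not include c-Maf KO replicate 1, and -0.26 in the value table (SE 0.096, 95% interval -0.49 to -0.020, adjusted p = 0.382). WT was 1.28-fold and 1.19-fold higher, and 0.303 was the lowest adjusted p of any of the 10 genes on the 5 arrays.

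A pair of further probes read Relb. A_55_P2168736 (chromosome 7, 20191773 to 20191832) overlaps A_51_P389751 by 9 bases, GAAGATGGG, so these are neighbouring readings of nearly separate sequence. Its ratios were -0.068, 0.096 and 0.072 in WT and 0.068, -0.28 and -0.19 in c-Maf KO. Here replicate 1 of c-Maf KO was inside the WT range while replicates 2 and 3 lay below it, and the difference was -0.17 (95% interval -0.43 to 0.097) in the value table and -0.27 on the 5 arrays. A_55_P2168741 (chromosome 7, 20203058 to 20203117) had a difference of -0.15 in the value table and -0.20 on the 5 arrays. The array files assign each of the 3 Relb probes to a different transcript record. All 3 probes of Relb were lower in c-Maf KO replicates 2 and 3 than in any WT sample, and c-Maf KO replicate 1 was inside or next to the WT range in each.

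**Figure D3:**
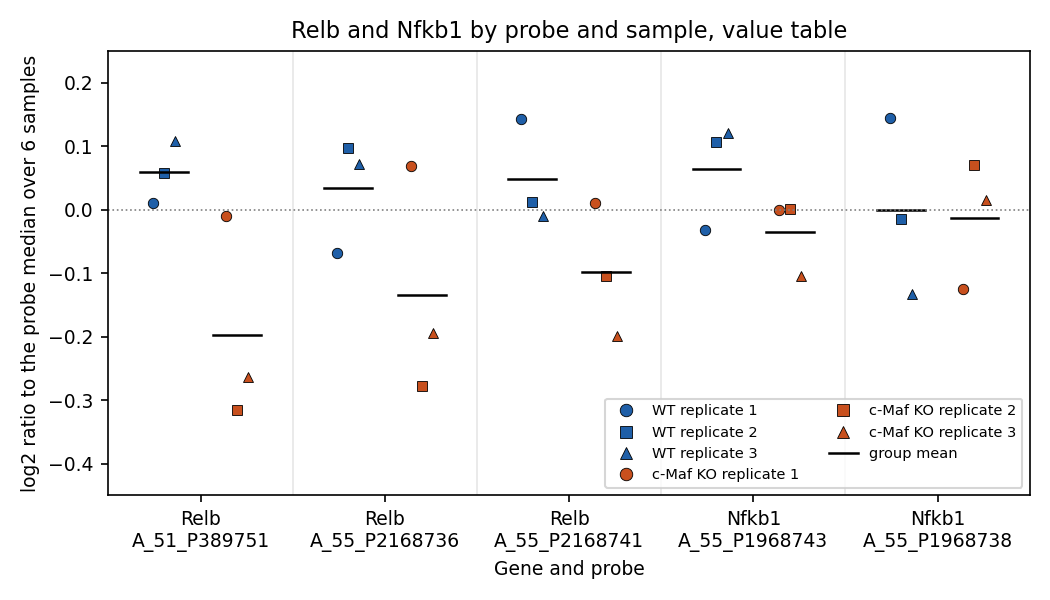
The vertical axis is the log2 ratio to the probe's median over the 6 samples for the 3 Relb probes and the 2 Nfkb1 probes, with 1 point per sample and bars for group means. All 3 Relb probes have c-Maf KO replicates 2 and 3 lowest, while the Nfkb1 probes differ from each other, with group differences of -0.10 and -0.012.

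Rel encodes c-Rel, a transactivating subunit best known from lymphocytes and from cytokine genes of antigen-presenting cells. Its probe A_51_P187461 was dim, with processed intensities of 73.0, 76.0 and 61.5 in WT and of 76.4 and 61.9 in c-Maf KO, although it was well above background on all 5 arrays. The ratios were 0.10, 0.19 and -0.22 in WT and -0.10, 0.13 and -0.37 in c-Maf KO. The groups overlapped throughout, with replicate 3 lowest in both genotypes. The difference of -0.14 (95% interval -0.55 to 0.26, limma adjusted p = 0.757) was smaller than the spread within either group (SD 0.22 in WT and 0.25 in c-Maf KO, n = 3), and on the 5 arrays without c-Maf KO replicate 3 it was 0.095. The coordinates given for this probe (chromosome 11, 23641729 to 23641743, mm9) cover 15 of its 60 bases.

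Nfkb1 and Nfkb2 encode p105 and p100, precursors that inhibit other subunits through their ankyrin repeats until processing turns them into the DNA-binding subunits p50 and p52. The Nfkb2 probe is shown because its groups lay apart.
Nfkb2 probe A_51_P454217: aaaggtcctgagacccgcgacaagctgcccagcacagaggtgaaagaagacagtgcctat
These 60 bases span 140 bases of the genome (chromosome 19, 46386146 to 46386285, plus strand, mm9), so its genome match is split. Its ratios were 0.12, 0.022 and 0.066 in WT and -0.091, -0.068 and -0.022 in c-Maf KO, with means of 0.070 ± 0.049 and -0.060 ± 0.035 (SD, n = 3 each). Every c-Maf KO sample was below every WT sample, with WT replicate 2 and c-Maf KO replicate 3 closest to each other. The difference was -0.13 (SE 0.060, 95% interval -0.28 to 0.016, limma adjusted p = 0.458) in the value table and -0.12 (SE 0.068, adjusted p = 0.621) on the 5 arrays, so WT was 1.09-fold and 1.08-fold higher, and neither value passed the test.

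For Nfkb1 the probe of highest mean signal, A_55_P1968743 (chromosome 3, 135254550 to 135254609, minus strand, mm9), had ratios of -0.032, 0.11 and 0.12 in WT and of -0.00058, 0.00058 and -0.11 in c-Maf KO. WT replicate 1 lay below 2 of the 3 c-Maf KO samples. The difference was -0.10 (95% interval -0.28 to 0.076, limma adjusted p = 0.607) and on the 5 arrays -0.12. The other probe, A_55_P1968738 (chromosome 3, 135247621 to 135247680), gave -0.012 in the value table and 0.043 on the 5 arrays. The probes of Nfkb1 thus differed in sign on the 5 arrays, and neither interval excluded 0.

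**Figure D4:**
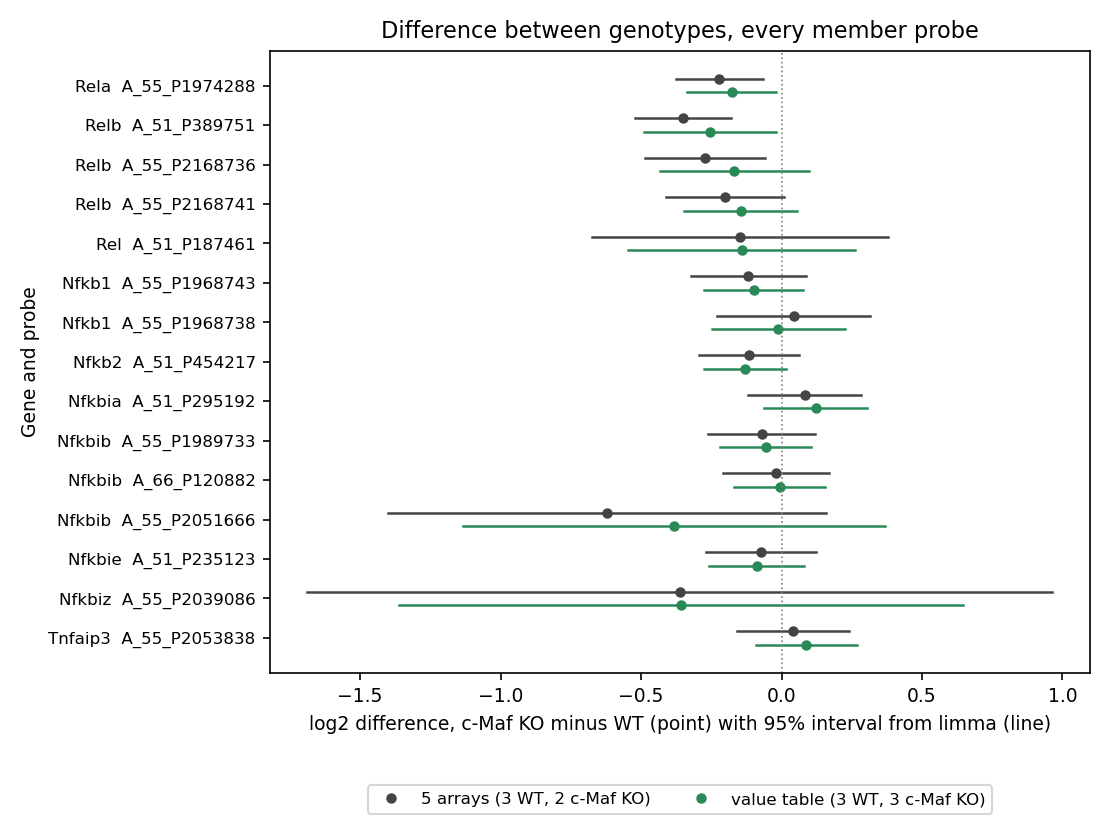
The horizontal axis is the log2 difference, c-Maf KO minus WT, for each of the 15 probes, with points for the estimate on the 5 arrays (dark) and in the value table (green) and lines for limma's 95% interval. In the value table the interval excludes 0 for the Rela probe and for the Relb probe A_51_P389751, and the widest intervals belong to the dim probes of Nfkbiz and Nfkbib.

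Nfkbia encodes I-kappa-B alpha, the fast feedback inhibitor that is degraded and made anew in each round of NF-kB activation. Its probe is shown because this inhibitor had a higher mean in c-Maf KO.
Nfkbia probe A_51_P295192: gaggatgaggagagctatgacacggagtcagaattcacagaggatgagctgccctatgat
The probe spans 496 bases of the genome (chromosome 12, 56590945 to 56591440, minus strand, mm9). Processed intensities were 10530, 10764 and 12475 in WT and 11799 and 14244 in c-Maf KO, and the levels were 4.65, 4.71 and 4.80 in WT and 4.76 and 4.85 in c-Maf KO. The ratios of Nfkbia were -0.15, -0.088 and 0.022 in WT and 0.13, -0.022 and 0.048 in c-Maf KO, with means of -0.071 ± 0.085 and 0.051 ± 0.074 (SD, n = 3 each). WT replicate 3 lay above c-Maf KO replicate 2, so the groups overlapped, and the difference of 0.12 (SE 0.075, 95% interval -0.061 to 0.31, limma adjusted p = 0.557) did not pass the test. Differences above 0.31 or below -0.061 thus lay outside the interval. Nfkbia and Tnfaip3 were the only NF-kB genes of the 10 with a difference above 0.

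Nfkbib and Nfkbie encode I-kappa-B beta and I-kappa-B epsilon, the slower cytoplasmic inhibitors. The brightest Nfkbib probe, A_55_P1989733 (chromosome 7, 29544160 to 29544219, minus strand, mm9), had ratios of 0.065, -0.014 and 0.0092 in WT and of -0.0092, 0.023 and -0.12 in c-Maf KO, with a difference of -0.056 (95% interval -0.22 to 0.11, limma adjusted p = 0.760). A second probe, A_66_P120882, whose 60 bases span 1396 bases of the genome, gave -0.0068. The third, A_55_P2051666, was dim (processed intensities of 47.6 to 98.8) and gave -0.38 with an interval of -1.13 to 0.37. The bright probes put both genotypes within a narrow range, and the dim one does not bear on so small a difference. Nfkbie (probe A_51_P235123, chromosome 17, 45700000 to 45700059, plus strand, mm9) had ratios of -0.016, 0.068 and 0.16 in WT and of -0.050, -0.0040 and 0.0040 in c-Maf KO. Its groups overlapped through WT replicate 1, and the difference was -0.088 (95% interval -0.26 to 0.080, adjusted p = 0.630).

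Nfkbiz encodes I-kappa-B zeta, a nuclear cofactor that is induced by Toll-like receptor signals and is needed for a second wave of inflammatory genes. Its probe A_55_P2039086 (chromosome 16, 55817859 to 55817918, minus strand, mm9) was dim, with processed intensities of 27.6, 14.4 and 27.0 in WT and of 10.71 and 32.7 in c-Maf KO, and it was well above background on 3 of the 5 arrays. The ratios were 0.40, -0.51 and 0.29 in WT and -0.29, -1.01 and 0.41 in c-Maf KO. High and low samples occurred in both genotypes, with c-Maf KO replicate 3 the highest of all. The difference of -0.36 (SE 0.41, 95% interval -1.36 to 0.65, limma adjusted p = 0.753) was below the SD of 0.50 in WT and 0.71 in c-Maf KO, and on the 5 arrays without c-Maf KO replicate 2 it was 0.35.

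Tnfaip3 encodes A20, a ubiquitin-editing enzyme that is induced by NF-kB and shuts down the signal upstream of the I-kappa-B kinase. Its probe (A_55_P2053838, chromosome 10, 18720776 to 18720835, minus strand, mm9) had levels of 1.16, 1.17 and 1.02 in WT and of 1.16 and 1.16 in c-Maf KO. The ratios were -0.0059, 0.0059 and -0.13 in WT and 0.14, 0.0090 and -0.011 in c-Maf KO. Apart from WT replicate 3 below and c-Maf KO replicate 1 above, the samples of both genotypes lay together. The difference of 0.088 (SE 0.074, 95% interval -0.092 to 0.27, limma adjusted p = 0.656) did not pass the test, and on the 5 arrays without WT replicate 3 it was -0.0096.

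The other genes of the pathway were described from lists of upstream kinases, ubiquitin machinery, further cofactors, receptors and targets. In these lists no gene was called higher or lower in either source. Of the kinases that phosphorylate I-kappa-B and those upstream of them, all 13 listed were kept, with 6 below and 7 above 0 in the value table and a median difference of 0.029. Ikbkg, the regulatory NEMO subunit of the I-kappa-B kinase, had a difference of 0.31 (limma adjusted p = 0.256), with every c-Maf KO sample above every WT sample. Ikbke, a related kinase, had -0.27 (adjusted p = 0.498), likewise without overlap but carried by c-Maf KO replicate 2 at -0.56, without which it was -0.12. Of the ubiquitin enzymes and partners of A20, all 20 were kept, with a median of -0.023. Traf6, the ligase downstream of Toll-like and interleukin 1 receptors, had -0.31 (ratios of 0.089 to 0.26 in WT and -0.25 to -0.089 in c-Maf KO, adjusted p = 0.257). Traf1, an adaptor of tumour necrosis factor receptors, had 0.16 (adjusted p = 0.603), carried by c-Maf KO replicate 2 at 0.39, without which it was 0.036.

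The 9 further I-kappa-B-like proteins and nuclear cofactors had a median of 0.045, and Nkrf, a repressor that binds NF-kB target promoters, had 0.13 (limma adjusted p = 0.488). Of the receptors and adaptors that feed the pathway all 18 were kept, with 11 below and 7 above 0 and a median of -0.028. Groups did not overlap for 4 of these 18, all lower in c-Maf KO, against the 9.26% given above for all probes. Of these 4, Ticam2, the adaptor that links Toll-like receptor 4 to its endosomal signal, had -0.40 (limma adjusted p = 0.371). Without c-Maf KO replicate 3 it was -0.26. Cd14, the lipopolysaccharide co-receptor, had -0.26 (adjusted p = 0.382), and these were the larger differences of the 4. In the other direction Il1r1, whose groups overlapped, had 0.35 (adjusted p = 0.490). For Ticam2 and Cd14, c-Maf KO replicate 1 was the c-Maf KO sample nearest to WT, as it was for Rela, Relb and Traf1. For Cd14 its ratio of -0.038 was close to the -0.050 of c-Maf KO replicate 3. For Nfkb2, Ikbkg, Ikbke, Traf6 and Nkrf the nearest was c-Maf KO replicate 3.

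Of 34 listed NF-kB target genes 26 were kept, with 8 below and 18 above 0 in the value table and a median difference of 0.10. Groups did not overlap for 6 of the 26, 5 higher and 1 lower in c-Maf KO, against 19.4% of all kept probes in either direction (10.2% higher and 9.26% lower). The lower gene, Cd83, had -0.48 (95% interval -0.72 to -0.25) and the lowest limma adjusted p of the list, 0.204. Cd83 was well above background on all 5 arrays, as were Ccl2 (0.81), Ccl5 (0.57) and Csf1 (0.93) among the higher ones. Il1a, Il6, Il12b, Il23a, Cxcl1, Cxcl10, Bcl2a1a and Mmp9 were not kept. Saa3, an acute-phase protein, had the greatest difference at 1.93 (95% interval 0.64 to 3.21, limma adjusted p = 0.278). It was well above background on only 2 arrays, the fewest a kept probe could have. Its ratios were -2.19, -0.28 and -0.81 in WT and 1.29, 0.93 and 0.28 in c-Maf KO. It may thus have been kept only through the group where it was higher, and it is among the 5 higher genes without overlap. Ptgs2, the inducible cyclooxygenase, had 1.13 (95% interval 0.33 to 1.93, adjusted p = 0.293) and was well above background on 3 arrays. With 2 c-Maf KO arrays, Ptgs2 too may have been kept only through the group where it was higher. It is also among the 5 higher genes without overlap, so that count is no independent support. Without WT replicate 2 its difference was 0.74. None of these 6 genes passed the test. Beside these values stand those of the stromal markers, whose median difference was 0.91 with 7 of 9 not overlapping and higher, against the 10.2% of all kept probes (Col3a1 1.00 and Col1a2 0.94). In the order of the replicate numbers, their mean ratio was -0.045, -0.94 and -0.80 in WT and 0.16, 0.27 and 0.48 in c-Maf KO. The macrophage markers had a median difference of -0.14, with 7 of 8 below 0 (Fcgr1 lowest at -0.44) and only Lyz2 above it at 0.33. Groups did not overlap for 3 of the 8 that were lower, against 9.26% of all kept probes. They also did not overlap for Lyz2, which was higher, against 10.2%. None of the 8 was called. Their mean ratios were 0.021, 0.045 and 0.0047 in WT and -0.0018, -0.19 and -0.090 in c-Maf KO. The 8 neutrophil and granulocyte precursor markers had a median of -0.46 with groups that overlapped for each. The part of these markers in the values of the NF-kB genes and targets was not tested, and in bulk RNA fewer cells of a type and less RNA per cell cannot be told apart.

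**Figure D5:**
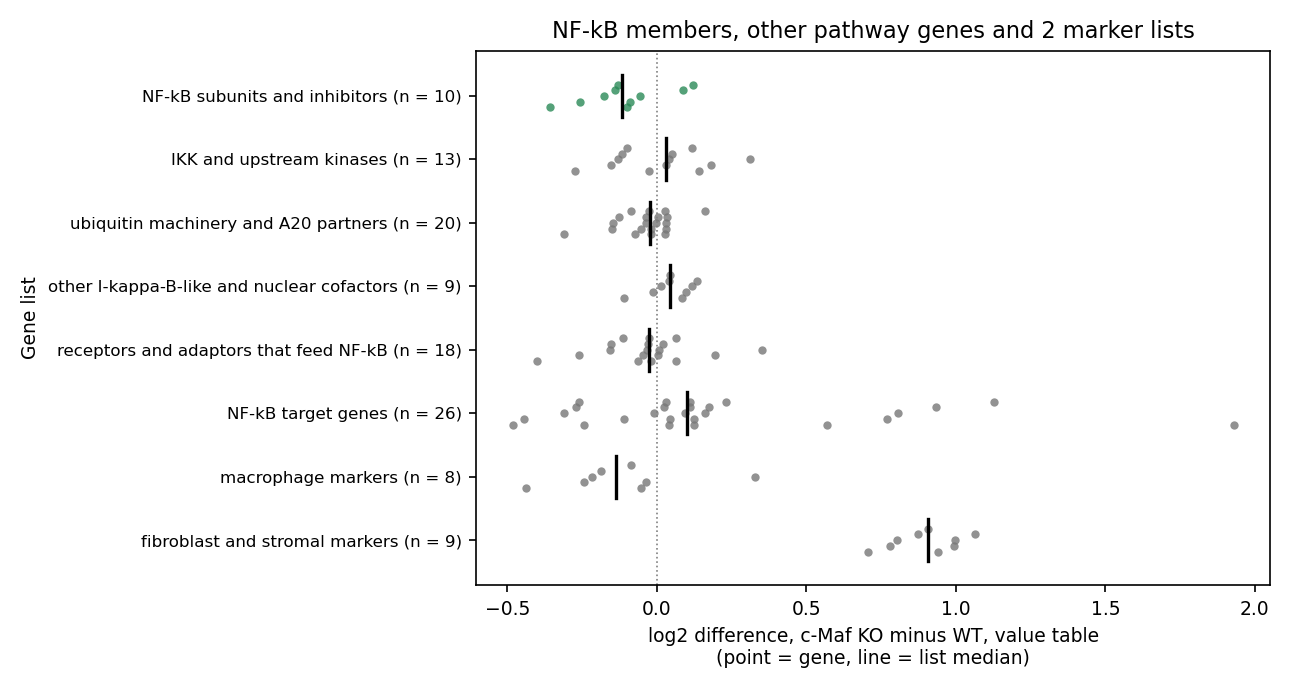
The horizontal axis is the log2 difference, c-Maf KO minus WT, in the value table, points are genes and bars are list medians, with the 10 NF-kB genes in green. The NF-kB genes lie between -0.36 and 0.12, and the stromal markers have a median of 0.91. The target genes reach 1.93 with Saa3, which was well above background on only 2 arrays.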

How the data were processed

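RNA was hybridised to 1-colour Agilent arrays. Per the submitters' processing notes, the authors used Agilent Feature Extraction (version 10.7.3.1), and the deposited scanner files hold its intensity of each spot. The deposited value table holds a linear ratio per probe. Its log2 values, compared with the scanner signals scaled to each array's 75th percentile, differed from them by a constant per probe and per array, so it was read as a ratio to the probe's median. The authors' filters are not given in the sources used here.

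Control and flagged spots were left out, processed intensities were divided by the array's 75th percentile, log2 was taken, and spots of a probe were averaged. Probes well above background on at least 2 arrays were kept (28273 of 55681). Differences were tested with limma 3.58.1 in R 4.3.3 (lmFit, eBayes, two-sided, Benjamini-Hochberg over all kept probes, threshold 0.05), a procedure tested on simulated data. A gene counted as called if its brightest kept probe was. Array numbers limit the precision. The exact permutation test of 3 against 3 cannot go below 0.1 and was not used.

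Named genes were all 10 members, Maf, and of each other list every called gene or else the 2 non-overlapping genes with the greatest value-table difference. Il1r1 and the remaining target genes without overlap were named beside these. The members and lists were chosen with earlier results of these data known. Alternatives were normexp correction with offset 50, quantile normalization, median centring, other probe filters and gene summaries, eBayes with trend and robust options (statmod 1.5.0), array weights, a replicate block, WT replicates 1 and 3 averaged because their file labels share a tag, and each sample left out. The SDs of log2 differences between WT samples were 0.319, 0.321 and 0.327, so no pair stood apart.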

Additional observations from a re-analysis of the deposited data

How the results depend on the processing

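No NF-kB gene was called in any of the 16 alternatives run on each source. Rela, Relb and Nfkb2 kept their direction and their lack of overlap in all 16 of both. Most of these alternatives could not have changed this. Leaving out or averaging samples cannot make separated groups overlap, and other filters, eBayes options, weights or a block leave a probe's values unchanged. The 5 arrays also hold the same measurements as the value table. The limma adjusted p of Relb on the 5 arrays was 0.0777 to 0.572. Reversals occurred on the 5 arrays with a sample left out: Tnfaip3 was -0.0096 without WT replicate 3 (range -0.0096 to 0.067), Nfkbiz 0.35 without c-Maf KO replicate 2 (range -1.08 to 0.35) and Rel 0.095 without c-Maf KO replicate 3 (range -0.39 to 0.095). The median of the 10 genes was -0.077 on the 5 arrays after normexp correction and -0.11 to -0.081 with a sample left out; in the value table it was -0.086 with array weights and -0.12 to -0.082 with a sample left out. Members without overlap in the value table numbered 6 with WT replicates 1 and 3 averaged and 3 to 5 with a sample left out, while the share of all kept probes without overlap was 29.2% and 27.3% to 37.5% in these settings, against 19.4% with all samples.

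Calls over all kept probes on the 5 arrays, 7 as reported, were 22 after normexp correction, 1 with probes above background on all 5 arrays, 123 with the trend and robust options, 2 with WT replicates 1 and 3 averaged and 2 to 18 with a sample left out. In the value table, 6 as reported, they were 2 without a filter, 50 with the trend and robust options, 2 with WT replicates 1 and 3 averaged, 3 after quantile normalization and 2 to 31 with a sample left out. The cause was not tested.

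Over all kept probes same-numbered samples did not deviate together (correlations of -0.0043, -0.044 and 0.081). This cannot exclude that the numbers pair them. With the replicate number as a block 0 probes were called from the 5 arrays and 7 from the value table; no NF-kB gene's call changed.

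Nfkbiz has no value with probes above background on all 5 arrays, and its dim signal, like those of Rel and the third Nfkbib probe, limits what can be seen.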
